A study of Mus musculus with 10 samples.

Results

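The 10 genes described here are endothelial and sinusoid genes: Pecam1, Cdh5, Kdr, Flt4, Tek, Emcn, Stab2, Plvap, Bcl6b and Egfl7. They were taken by symbol, as known genes of vessel-lining cells, from a table of 35705 mouse genes, and all 10 were among the 13841 that entered the test, for which the average over the libraries had to reach 1 TPM (kallisto's measure of transcript abundance, scaled to transcript length and to a fixed library total). The tissue was the cartilage cap of the medial knee compartment, dissected from individual mice, with 5 wild-type control mice and 5 Mir324-null mice, which lack the microRNA gene Mir324. Neither group was treated. The labels used here give no age, sex, strain background or form of the null allele. One RNA-sequencing library was made per mouse, so n = 5 per genotype counts mice, and the libraries are called wild-type 1 to 5 and null 1 to 5. The series title names osteoblasts and osteoclasts, and the comparison of the genotypes asks which transcripts differ in joint tissue without Mir324.

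Endothelial cells line all blood and lymph vessels. Vascular endothelial growth factor (VEGF) and angiopoietin receptors on their surface drive vessel growth and stability, VE-cadherin holds neighbouring cells together, and in marrow the capillaries widen into sinusoids whose thin, fenestrated lining clears macromolecules and lets blood cells pass. Articular cartilage itself has no vessels, whereas subchondral bone and marrow are rich in them. RNA of these 10 genes was present in every library. The labels call the material articular cartilage and the cells chondrocytes. Haemoglobin genes, which mark red blood cells, made up 11.2% to 26.1% of all TPM per library, and of 9 chondrocyte genes 7 reached the mean of 1 TPM. In bulk tissue, fewer cells of a type and less RNA per cell cannot be told apart.

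Mir324 gives a pair of mature strands, and their seeds, bases 2 to 8 in capitals, are shown because the null mice lack them and because the reverse complement of one seed occurs in 3′ untranslated regions of these genes (RefSeq sequences, GRCm38.p6, chromosome 11, plus strand).
mmu-miR-324-5p (chr11:70012060-70012082): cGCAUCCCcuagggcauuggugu
mmu-miR-324-3p (chr11:70012095-70012114): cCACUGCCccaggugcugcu
The seeds differ, so the strands have separate target letters. GGCAGTG, the reverse complement of the miR-324-3p seed, occurred in the longest annotated 3′ untranslated region of 5 of the 10 genes, against 15.4% of 12601 genes searched the same way. GGGATGC, the reverse complement of the miR-324-5p seed, occurred in 0 of the 10, against 8.5% of the 12601. The sites, in capitals with 10 bases on either side, were in these transcripts.
Pecam1 (base 20 of 926): agacagtcaaGGCAGTGcacgtccctg
Cdh5 (base 1020 of 1513): cctttccaggGGCAGTGtggcctctct
Kdr (base 872 of 1596): ctgccctggtGGCAGTGtctgagggtt
Flt4 (base 1583 of 1656): tgccctttttGGCAGTGttctgaaatg
Bcl6b (base 42 of 1899): gctccctaggGGCAGTGaaagctgtag
In Bcl6b the site is followed by an A, which makes it an 8-base match, and in the other four it is a 7-base match. A match describes letters only. Emcn, Plvap, Stab2, Tek and Egfl7 held neither site in their longest 3′ untranslated region.

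Across the 10 genes, RNA levels were lower on average in the null mice for 9 and higher for 1, Stab2, but no gene passed the test. With limma on log2(TPM + 1) and Benjamini-Hochberg adjustment over all 13841 genes, 0 of the 10 had an adjusted p below 0.05, as had 0 of all genes tested (0.00%). At an unadjusted limma p below 0.05, 3 of the 10 were lower (Emcn, Plvap and Cdh5) and 0 were higher, against 7.30% of all genes lower and 4.28% higher. The same 3 genes had an exact permutation p below 0.05, for which the smallest possible value with 5 mice against 5 is 0.00794. Of all genes tested, 60.0% had a lower mean in the null mice. The median difference of the 10 genes was -0.21 in log2, and that of all genes tested was -0.045. The all-gene values depended on the scaling: 49.3% of genes were lower under median ratio scaling, 49.2% under quantile normalization and 42.5% after removing haemoglobin genes, with medians of 0.0032, 0.0038 and 0.036, while those of the 10 genes were -0.16, -0.14 and -0.13. In no member did all 5 null libraries lie outside the wild-type range, whereas 1.06% of all genes had all null libraries below and 0.881% had them all above. Summed over the 10 genes, wild-type mice had 179.7 ± 22.8 TPM (SD, n = 5) and null mice had 150.5 ± 22.2 TPM.

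**Figure D1:**
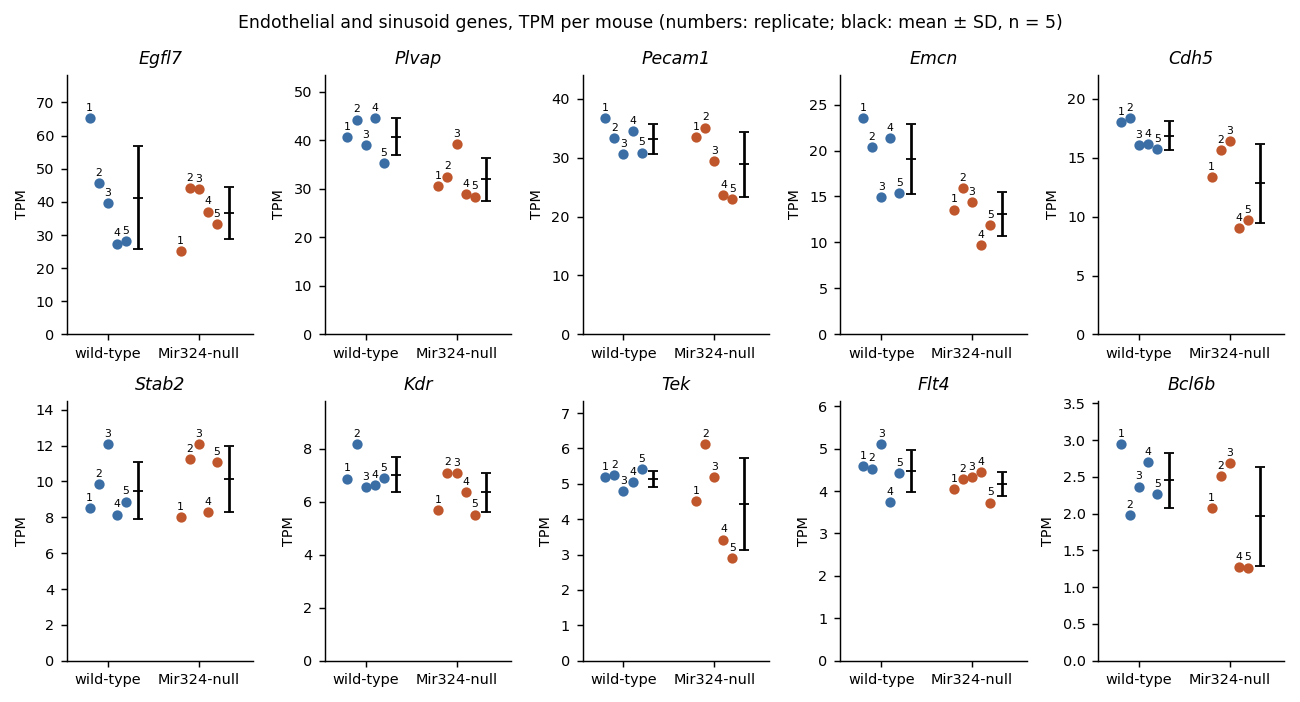
TPM of each of the 10 genes in each mouse, ordered by mean level. Points are mice, numbered by replicate, and black bars are the mean ± SD of 5 mice; null 4 or null 5 is the lowest library for 8 of the 10 genes, and the genotypes overlap in every panel.

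Because TPM is scaled by transcript length, levels can be ordered between genes. The mean over the 10 libraries was 39.0 TPM for Egfl7, 36.3 TPM for Plvap, 31.0 TPM for Pecam1, 16.1 TPM for Emcn and 14.9 TPM for Cdh5. It was 9.82 TPM for Stab2, 6.69 TPM for Kdr, 4.79 TPM for Tek, 4.32 TPM for Flt4 and 2.21 TPM for Bcl6b. These are totals over all annotated transcripts, so the order is not one of protein-coding RNA. Of the Stab2 total, 6.87 TPM was Stab2-205, annotated as subject to nonsense-mediated decay. Protein-coding Stab2-201 averaged 2.45 TPM, below the totals of Kdr, Tek and Flt4. The Egfl7 total includes retained-intron transcripts, among them Egfl7-213 at 5.00 TPM. The order of neighbours held in all 10 libraries for Pecam1 over Emcn, Stab2 over Kdr, Kdr over Tek and Flt4 over Bcl6b. It held in 9 for Cdh5 over Stab2, in 8 for Plvap over Pecam1, and in only 7 for Egfl7 over Plvap, Emcn over Cdh5 and Tek over Flt4, so these last pairs were not separated beyond their spread.

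Pecam1 (ENSMUSG00000020717, chr11:106654217-106750628, GRCm38) encodes CD31, an adhesion molecule of endothelial junctions that platelets and leukocytes also carry. Its level was 36.7, 33.3, 30.5, 34.4 and 30.8 TPM in wild-type 1 to 5 and 33.5, 35.1, 29.3, 23.6 and 23.0 TPM in null 1 to 5. Null 3, 4 and 5 lay below every wild-type library, and null 1 and null 2 lay within the wild-type range. The means were 33.2 ± 2.58 and 28.9 ± 5.52 TPM, a log2 difference of -0.21 (SE 0.128, limma p = 0.129, adjusted p = 0.582, exact permutation p = 0.175). Without null 5 that difference was -0.14, and after removing haemoglobin genes it was -0.12.

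Cdh5 (ENSMUSG00000031871, chr8:104101625-104144511) encodes VE-cadherin, the adhesion protein of endothelial junctions and one of the most specific markers of the cell type. Its level was 18.0, 18.4, 16.1, 16.2 and 15.7 TPM in wild-type 1 to 5 and 13.3, 15.7, 16.4, 9.05 and 9.73 TPM in null 1 to 5. All 5 null libraries lay below the wild-type mean and 4 lay below every wild-type library, null 2 only just; null 3 overlapped the wild-type range. The means were 16.9 ± 1.22 and 12.8 ± 3.35 TPM, and the null mean was 0.761 times the wild-type mean. The log2 difference was -0.40 (SE 0.159, limma p = 0.0272, adjusted p = 0.374, exact permutation p = 0.0476). The wild-type mice were close together, with a coefficient of variation of 7.25%, and the null mice spread over 26.1%. Its unadjusted limma p exceeded 0.05 when wild-type 1 (0.0516), wild-type 2 (0.0584), null 4 (0.0721) or null 5 (0.0691) was left out.

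Kdr (ENSMUSG00000062960, chr5:75932827-75978458) encodes VEGFR2, the main signalling receptor for VEGF-A. It measured 6.87, 8.17, 6.55, 6.64 and 6.88 TPM in wild-type 1 to 5 and 5.69, 7.10, 7.09, 6.36 and 5.52 TPM in null 1 to 5. Wild-type 2 stood above all other libraries, and null 1, 4 and 5 lay below every wild-type library. The means, 7.02 ± 0.659 and 6.35 ± 0.749 TPM, differed by -0.13 in log2 (SE 0.113, limma p = 0.277, adjusted p = 0.736, exact permutation p = 0.198), which is within the spread between mice. It was -0.080 without wild-type 2, -0.082 under median ratio scaling, and -0.052 both under quantile normalization and after removing haemoglobin genes.

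Flt4 (ENSMUSG00000020357, chr11:49609263-49652739) encodes VEGFR3, the VEGF-C receptor of lymphatic and sinusoidal endothelium. It measured 4.60, 4.53, 5.11, 3.74 and 4.42 TPM in wild-type 1 to 5 and 4.04, 4.28, 4.33, 4.44 and 3.73 TPM in null 1 to 5. All null libraries lay below the wild-type mean of 4.48 ± 0.489 TPM, but only null 5 lay below every wild-type library. The null mean was 4.16 ± 0.283 TPM, and the log2 difference of -0.082 (SE 0.113, limma p = 0.483, adjusted p = 0.860, exact permutation p = 0.262) was 0.013 with quantile normalization. It was -0.042 without wild-type 3, -0.13 without wild-type 4 and -0.051 without null 5, and -0.037 under median ratio scaling and -0.0091 after removing haemoglobin genes. Prox1, the defining transcription factor of lymphatic endothelium, reached at most 0.0561 TPM in any library and was not tested.

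Tek (ENSMUSG00000006386, chr4:94739289-94874976) encodes TIE2, the angiopoietin receptor, which some haematopoietic cells also carry. It measured 5.19, 5.26, 4.80, 5.06 and 5.41 TPM in wild-type 1 to 5 and 4.51, 6.12, 5.20, 3.42 and 2.91 TPM in null 1 to 5. The wild-type mice were the most uniform of any member, with a coefficient of variation of 4.49%, and the null mice varied by 29.4%, with null 2 above and null 1, 4 and 5 below every wild-type library. The means were 5.14 ± 0.231 and 4.43 ± 1.30 TPM, a log2 difference of -0.21 (SE 0.163, limma p = 0.222, adjusted p = 0.684, exact permutation p = 0.278). It was -0.10 without null 5, -0.32 without null 2 and -0.12 under quantile normalization. For 7 of the 10 members the coefficient of variation was larger in null than in wild-type mice; this difference in spread was not tested.

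Emcn (ENSMUSG00000054690, chr3:137341067-137432185) encodes endomucin, a mucin-like glycoprotein of capillary, venous and sinusoidal endothelium that marks vessel subtypes in bone together with CD31. It measured 23.6, 20.3, 15.0, 21.4 and 15.3 TPM in wild-type 1 to 5 and 13.6, 15.9, 14.4, 9.73 and 11.9 TPM in null 1 to 5. All null libraries lay below the wild-type mean and 4 lay below every wild-type library; null 2 was above wild-type 3 and wild-type 5. The means were 19.1 ± 3.80 and 13.1 ± 2.36 TPM, a ratio of 0.685. The log2 difference of -0.51 was the largest among the 10 genes (SE 0.159, limma p = 0.00794, adjusted p = 0.319, exact permutation p = 0.0238).

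Plvap (ENSMUSG00000034845, chr8:71497765-71511752) encodes the protein of the diaphragms that span endothelial fenestrae and caveolae. It measured 40.7, 44.2, 39.0, 44.6 and 35.3 TPM in wild-type 1 to 5 and 30.6, 32.5, 39.2, 29.0 and 28.4 TPM in null 1 to 5. Null 3 lay among the wild-type libraries and the other 4 null libraries lay below all of them. The means were 40.8 ± 3.86 and 31.9 ± 4.34 TPM, a ratio of 0.783. The log2 difference was -0.35 (SE 0.108, limma p = 0.00760, adjusted p = 0.319, exact permutation p = 0.0238).

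Stab2 (ENSMUSG00000035459, chr10:86841198-87008025) encodes stabilin-2, the scavenger receptor for hyaluronan of sinusoidal endothelium in liver, spleen and marrow. It measured 8.52, 9.85, 12.1, 8.15 and 8.88 TPM in wild-type 1 to 5 and 8.01, 11.2, 12.1, 8.31 and 11.1 TPM in null 1 to 5. The groups overlapped almost completely, and null 5, low for most members, was among the higher libraries here. The means were 9.49 ± 1.58 and 10.1 ± 1.85 TPM, a log2 difference of 0.082 (SE 0.145, limma p = 0.583, adjusted p = 0.901, exact permutation p = 0.564). With each mouse left out in turn it ran from 0.020 (without null 3) to 0.16 (without wild-type 3), and it was 0.13 under median ratio scaling, 0.15 under quantile normalization and 0.17 after removing haemoglobin genes.

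The Stab2 total was made up of several transcripts. On average 70.0% of Stab2 TPM lay in Stab2-205, a transcript of 3502 bases annotated as subject to nonsense-mediated decay, which lies over the 3′ part of the protein-coding Stab2-201 of 8228 bases. Stab2-205 averaged 6.29 ± 0.718 TPM among wild-type and 7.46 ± 1.44 TPM among null mice, while Stab2-201 measured 2.55 ± 0.572 and 2.35 ± 0.460 TPM. With protein-coding transcripts only, the Stab2 log2 difference was -0.079 (SE 0.145; limma's Benjamini-Hochberg adjusted p = 0.886), so its sign depended on which transcripts were summed. Both values lie within the spread between mice.

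**Figure D2:**
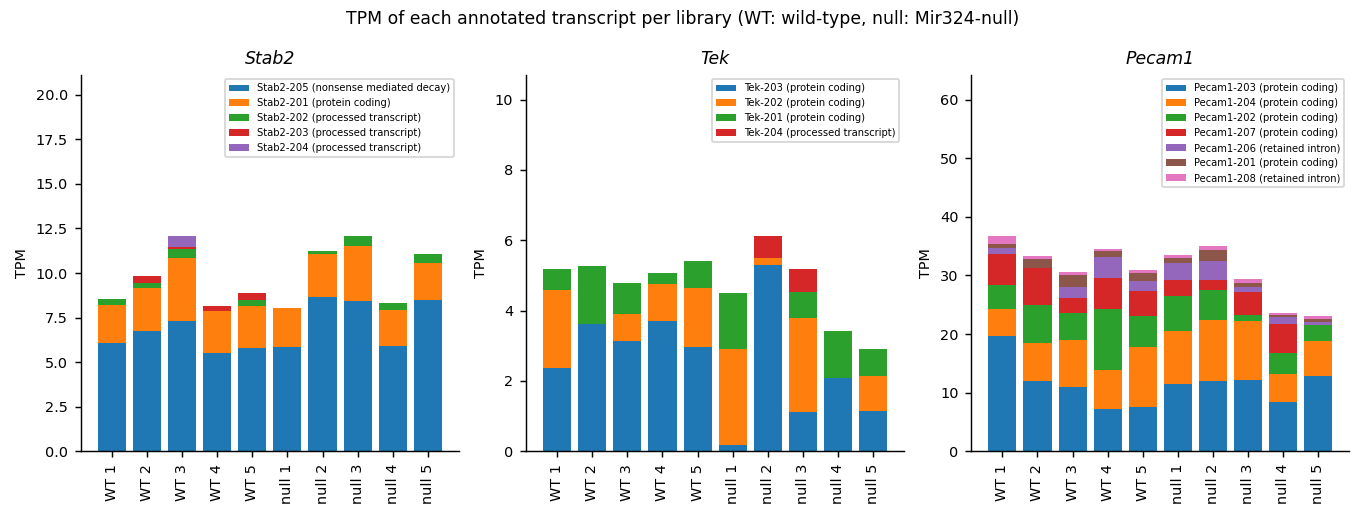
TPM of each annotated transcript of Stab2, Tek and Pecam1 stacked per library (y axis, TPM; x axis, wild-type and null libraries). Stab2-205 is the main part of Stab2 in every library, whereas the share of Tek-203 runs from 3.68% to 86.7%.

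The other members differed in how far their level rested on a single transcript. Cdh5, Kdr, Flt4 and Plvap each had at least 98.3% of their TPM in 1 transcript, and Bcl6b had 86.6% and Emcn 78.5%. For Tek, the share of Tek-203 ran from 3.68% to 86.7% between libraries although the gene total varied far less. Egfl7 TPM was divided among 19 transcripts, none with over 14.2% on average. Gene totals are therefore used here, and transcript shares of Tek, Pecam1 and Egfl7 are estimates that vary widely between mice.

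Bcl6b (ENSMUSG00000000317, chr11:70224128-70229798) encodes a zinc-finger transcriptional repressor related to BCL6. It lies on the minus strand, and its 3′ end, the nearer edge, is 212.0 kb from Mir324 on the same chromosome, in the direction of higher coordinates. It measured 2.94, 1.98, 2.37, 2.70 and 2.27 TPM in wild-type 1 to 5 and 2.08, 2.51, 2.69, 1.28 and 1.27 TPM in null 1 to 5. Null 4 and null 5 stood clearly below all other libraries, and the other 3 null libraries lay inside the wild-type range. The means, 2.45 ± 0.376 and 1.96 ± 0.669 TPM, differed by -0.24 in log2 (SE 0.177, limma p = 0.193, adjusted p = 0.655, exact permutation p = 0.214). The difference was -0.16 without null 4, -0.16 without null 5 and -0.15 under quantile normalization.

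Egfl7 (ENSMUSG00000026921, chr2:26580014-26593120) encodes a secreted protein of the vessel matrix, and one of its introns carries the endothelial microRNA miR-126. It measured 65.4, 45.6, 39.7, 27.4 and 28.3 TPM in wild-type 1 to 5 and 25.2, 44.2, 43.9, 37.1 and 33.3 TPM in null 1 to 5. Wild-type 1 was far above the rest, and null 1 was the lowest, with the other null libraries inside the wild-type range. The means were 41.3 ± 15.5 and 36.7 ± 7.90 TPM, a log2 difference of -0.12 (SE 0.233, limma p = 0.621, adjusted p = 0.916, exact permutation p = 0.675). The difference was 0.063 without wild-type 1 and 0.0059 without null 1, so its direction rested on those libraries. It ranged down to -0.24 without wild-type 4, and it was -0.065 under median ratio scaling and -0.030 after removing haemoglobin genes.

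Read by target site, the 5 genes with a miR-324-3p site (Pecam1, Cdh5, Kdr, Flt4 and Bcl6b) were all lower in the null mice, from -0.40 to -0.082 with a median of -0.21. Among the 5 without one, 4 were lower, from -0.51 to 0.082, also with a median of -0.21. The medians of the groups were alike to 2 decimals, and no test was made of so few genes.

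The null libraries were not alike. Averaged over the 10 genes after centring each on its mean over all libraries, log2 levels were 0.25, 0.18, 0.085, 0.052 and -0.015 in wild-type 1 to 5 and -0.16, 0.11, 0.10, -0.30 and -0.30 in null 1 to 5. Null 2 and null 3 were inside the wild-type range, and null 4 and null 5 were the lowest. Null 5 was the lowest library for 6 members, and null 1 and null 4 for 2 each. For 6 of the 10 members the 2 lowest libraries were null 4 and null 5. The median difference of the 10 genes was -0.12 without null 5 and -0.14 without null 4, against -0.30 without null 2.

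Other measures also varied between the libraries. Haemoglobin genes made up 23.3% and 26.1% of TPM in null 4 and null 5, against 11.2% to 20.5% in the other 8 libraries. With the values rescaled after removing haemoglobin genes, the median of the 10 genes was -0.13 and that of all genes tested was 0.036, against -0.21 and -0.045 without this step. Emcn (-0.43), Cdh5 (-0.32) and Plvap (-0.26) each kept an unadjusted limma p below 0.05. Of 10 mural cell genes, which mark the pericytes and smooth muscle cells around vessels, 9 were lower in null mice, 5 of them at an unadjusted limma p below 0.05, and their summed level ran from 80.5 to 140.3 TPM across wild-type libraries and from 58.0 to 101.1 TPM across null libraries. All 9 megakaryocyte genes, which mark the platelet-forming cells that also carry CD31, were higher, each at an unadjusted limma p below 0.05, with summed levels of 1173 to 1783 TPM (wild-type) and 1383 to 2848 TPM (null). All 10 osteoblast and osteocyte genes were lower, 9 of them at an unadjusted limma p below 0.05, with summed levels of 6312 to 14820 TPM (wild-type) and 3544 to 7319 TPM (null). Of all genes tested, 60.0% were lower, and 7.30% were lower and 4.28% higher at that threshold. None of these marker genes passed adjustment and no gene of these 3 lists was at 0 in all libraries. Centred as the members were, the megakaryocyte list averaged 0.51 in null 1, 0.18 in null 4 and 0.56 in null 5. The osteoblast and osteocyte list averaged -0.82, -0.42 and -0.91 in the same libraries. The mural cell list averaged -0.11 in null 1, -0.50 in null 4 and -0.48 in null 5. The erythroid list averaged 0.060, 0.44 and 0.53 in the same libraries. The part of the marker lists in the endothelial values was not tested.

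**Figure D3:**
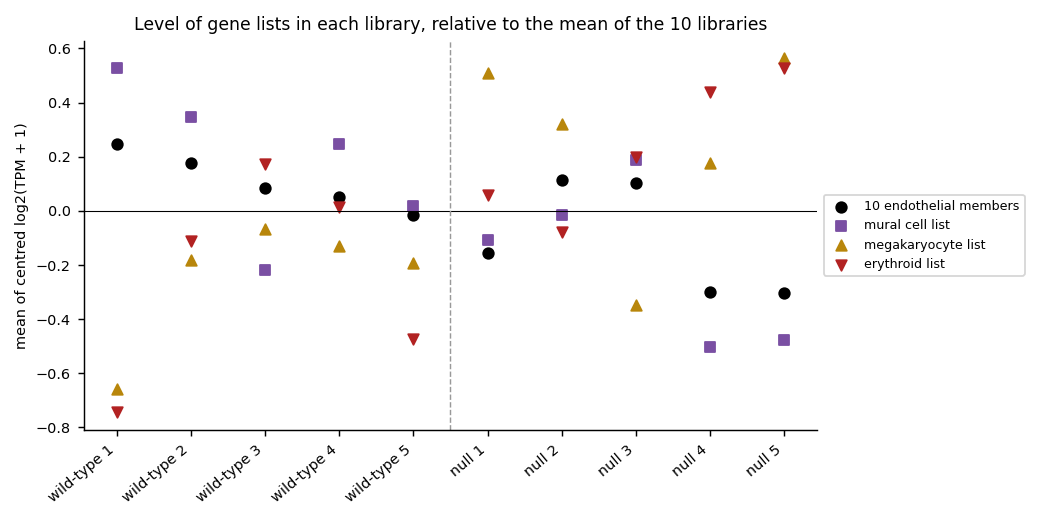
Mean centred log2(TPM + 1) of the 10 endothelial genes and of the mural cell, megakaryocyte and erythroid lists in each library (y axis, log2 units relative to the mean of the 10 libraries; x axis, library). The endothelial and mural points are lowest in null 4 and null 5, where the erythroid points are high.

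Ratios between members within a library do not depend on how libraries are scaled. These ratios were chosen after the values were seen and are given without a test. The log2 ratio of Emcn to Stab2 was 1.0 ± 0.473 in wild-type mice (0.31 to 1.47) and 0.37 ± 0.262 in null mice (0.10 to 0.76). Plvap over Stab2 was 2.11 ± 0.288 and 1.66 ± 0.226, and Cdh5 over Stab2 was 0.84 ± 0.258 and 0.32 ± 0.356. All 3 ratios had lower means in the null mice, and the ranges of the genotypes overlapped.

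The wider endothelial genes were read from 6 lists of 56 genes in all, of which 51 were tested. In the null mice 39 were lower and 12 higher, beside 60.0% of all genes tested that were lower. The median log2 difference of the 51 was -0.23, beside -0.045 for all genes tested. With limma 0 passed adjustment, and at an unadjusted p below 0.05, 8 were lower and 2 higher, beside 7.30% and 4.28% of all genes. The 8 became 4 without null 5, 5 without null 4, 5 without wild-type 1 and 14 without null 3. The all-gene count of 1011 lower at that threshold moved the same way, to 668, 689, 620 and 1355 in the same order. For 3 genes (Ptprb, Nos3 and Nr2f2) all null libraries lay below all wild-type libraries, and for Tal1 they lay above, beside 1.06% of all genes tested below and 0.881% above.

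Among the VEGF ligands and other VEGF receptors, 6 of 7 tested were lower. Nrp2, a coreceptor for VEGF-C and semaphorins and the most abundant of the list, averaged 36.8 ± 7.97 TPM (wild-type) and 22.6 ± 9.33 TPM (null) (log2 difference -0.73, limma p = 0.00990, adjusted p = 0.325, exact permutation p = 0.0318). In the angiopoietin list 3 of 4 were lower. Ptprb, the endothelial phosphatase VE-PTP that acts on TIE2 and VE-cadherin, measured 4.90 ± 0.709 and 3.27 ± 0.695 TPM (log2 difference -0.48, limma p = 0.00844, adjusted p = 0.319, exact permutation p = 0.00794). Angpt1, the TIE2 ligand and the most abundant of the list, measured 10.6 ± 2.55 and 12.7 ± 2.45 TPM (log2 difference 0.26, limma p = 0.194, adjusted p = 0.656, exact permutation p = 0.262), and its difference was 0.11 without wild-type 1.

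Of the other endothelial genes 15 of 17 were lower, with a median of -0.22. Robo4, an endothelial receptor of the Roundabout family, had a log2 difference of -0.87 (6.03 ± 2.58 and 3.05 ± 2.31 TPM, limma p = 0.0236, adjusted p = 0.365, exact permutation p = 0.0635). Mcam, the adhesion molecule CD146, which pericytes also carry, had -0.50 (8.38 ± 0.965 and 5.82 ± 1.89 TPM, limma p = 0.0209, adjusted p = 0.354, exact permutation p = 0.0318). Nos3, the endothelial nitric oxide synthase, was close to 1 TPM, with 1.38 ± 0.358 and 0.736 ± 0.233 TPM (log2 difference -0.46, limma p = 0.0180, adjusted p = 0.350, exact permutation p = 0.00794), and -0.84 with a pseudocount of 0.1. Vwf, von Willebrand factor, which megakaryocytes also make, was the most abundant gene of the list and had a higher null mean, 38.2 ± 6.58 against 48.8 ± 15.2 TPM (log2 difference 0.32, limma p = 0.125, adjusted p = 0.577, exact permutation p = 0.198). Without null 1 the Vwf difference was 0.16.

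Of the other sinusoid and lymphatic genes, 5 of 7 were tested, 1 was lower and 4 were higher, with a median of 0.14 and none at an unadjusted limma p below 0.05. The 1 that was lower, Stab1, a scavenger receptor that macrophages share, measured 36.1 ± 13.9 and 29.0 ± 8.01 TPM (log2 difference -0.27, limma p = 0.281, adjusted p = 0.738, exact permutation p = 0.365). The Stab1 difference was -0.083 without wild-type 1, -0.42 without wild-type 5 and -0.17 without null 5. Arterial genes were lower in 6 of 7 cases. Hey1, a Notch target, measured 7.16 ± 2.17 and 4.21 ± 1.68 TPM (log2 difference -0.66, limma p = 0.0207, adjusted p = 0.354, exact permutation p = 0.0476), and Bmx, the most abundant of the list, measured 9.53 ± 3.24 and 9.66 ± 1.39 TPM (log2 difference 0.061, limma p = 0.760, adjusted p = 0.952, exact permutation p = 0.778).

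Of the endothelial transcription factors 11 of 13 were tested, and Etv2, which acts in the embryo, was listed at 0 in every library. 8 were lower and 3 higher. Nr2f2, the venous identity factor COUP-TFII, measured 4.05 ± 0.707 and 2.71 ± 0.662 TPM (log2 difference -0.45, limma p = 0.0158, adjusted p = 0.342, exact permutation p = 0.00794), and Ets2 measured 15.9 ± 3.01 and 12.5 ± 2.14 TPM (log2 difference -0.33, limma p = 0.0468, adjusted p = 0.427, exact permutation p = 0.0714). Tal1 and Lyl1, which blood-forming and erythroid cells also use, had higher null means. Tal1 measured 49.7 ± 11.9 and 73.5 ± 5.61 TPM (log2 difference 0.59, limma p = 0.00269, adjusted p = 0.287, exact permutation p = 0.00794), and Lyl1 measured 49.2 ± 7.95 and 58.2 ± 3.81 TPM (log2 difference 0.25, limma p = 0.0459, adjusted p = 0.426, exact permutation p = 0.0635). Of 7 erythroid marker genes, all were higher in the null mice, 4 at an unadjusted limma p below 0.05. Of all genes tested, 60.0% were lower, and 4.28% were higher at that threshold. The summed levels of the erythroid genes were 112600 to 198800 TPM (wild-type) and 159200 to 263600 TPM (null). The part of the erythroid genes in the values of Tal1 and Lyl1 was not tested.

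**Figure D4:**
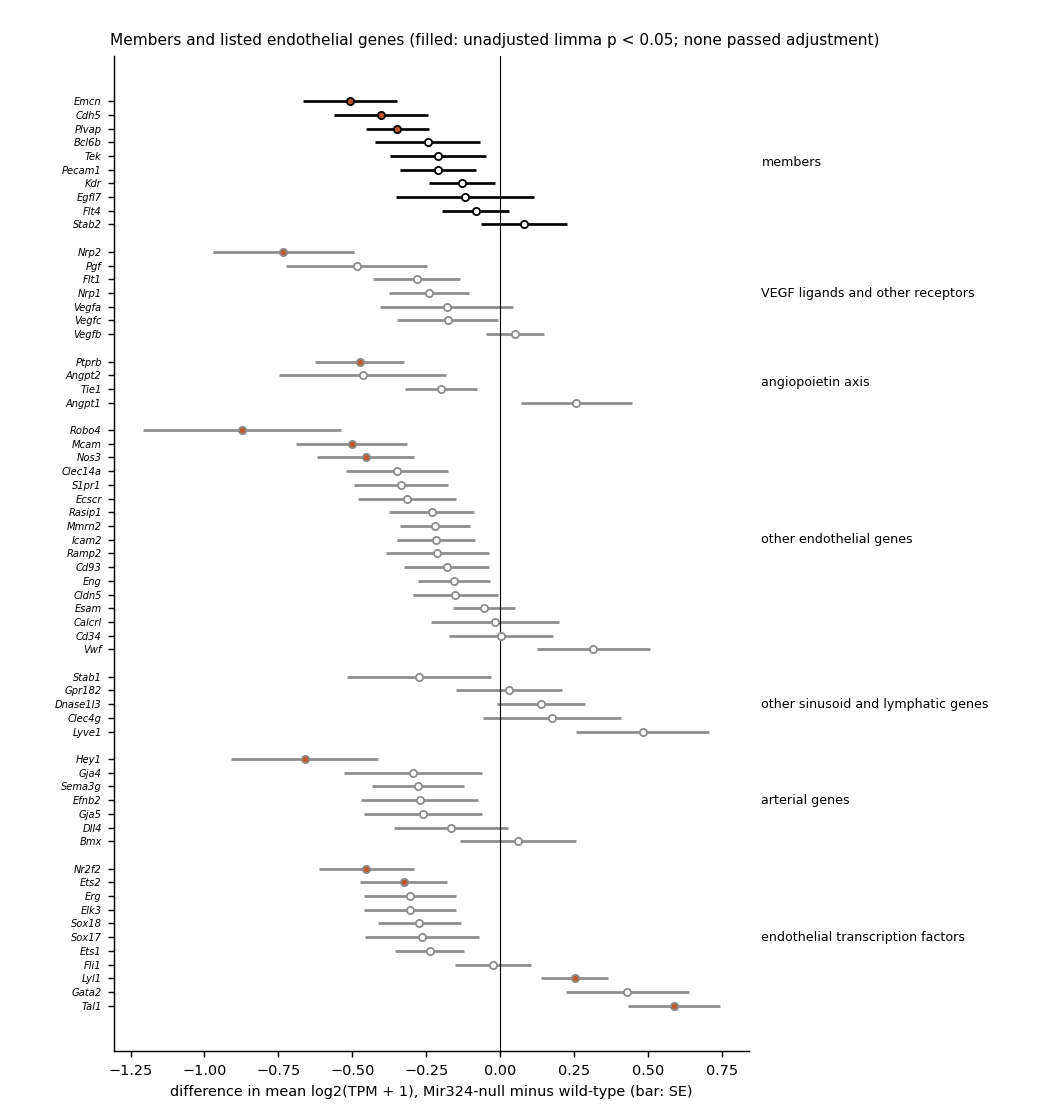
Difference in mean log2(TPM + 1), null minus wild-type, for the 10 members and the 51 tested genes of the wider lists (x axis, log2 units; points are estimates, bars SE, filled points have an unadjusted limma p below 0.05). Emcn, Cdh5 and Plvap are the filled members, and no gene passed adjustment.

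The genes whose profile over the 10 libraries was most like the mean profile of the members were Lipo3, Atp6ap1, Ctso, Uxs1 and Peak1, with root mean square differences of 0.0544, 0.0545, 0.0580, 0.0648 and 0.0666 in log2. Members themselves lay 0.116 (Kdr) to 0.312 (Egfl7) from that profile. All of these distances are over the same 10 libraries and share their differences in composition.

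Promoter sequence, 250 bases before to 50 after a start site, was matched for 6 of the 10 genes in 8 entries (RefSeq, GRCm38.p6). ETS factors are core regulators of endothelial genes. The letters GGAAGT, a form of their binding site, were searched on both strands (ACTTCC on the other). They occurred in 3 of the 8 entries, 1 of Kdr and 2 of Egfl7, against 23.8% of 32851 promoters. The letters AGATAA, a form of the GATA-factor site, occurred on either strand in 1 entry, that of Tek, against 11.2%. The TATA-box letters TATAAA, on either strand, occurred in 0 entries, against 13.6%. The promoters of Kdr, which holds the ETS letters in capitals 217 bases before its start, of Emcn, the member with the largest difference, and of Stab2, the member with a higher null mean, are shown.
Kdr (chr5:75978406-75978705, minus strand): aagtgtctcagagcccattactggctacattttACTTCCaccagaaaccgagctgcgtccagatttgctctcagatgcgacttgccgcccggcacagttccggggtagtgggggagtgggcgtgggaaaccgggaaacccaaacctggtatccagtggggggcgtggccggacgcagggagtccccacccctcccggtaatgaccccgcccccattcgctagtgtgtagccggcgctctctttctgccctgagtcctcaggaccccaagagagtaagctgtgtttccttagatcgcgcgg
Emcn (chr3:137340828-137341127, plus strand): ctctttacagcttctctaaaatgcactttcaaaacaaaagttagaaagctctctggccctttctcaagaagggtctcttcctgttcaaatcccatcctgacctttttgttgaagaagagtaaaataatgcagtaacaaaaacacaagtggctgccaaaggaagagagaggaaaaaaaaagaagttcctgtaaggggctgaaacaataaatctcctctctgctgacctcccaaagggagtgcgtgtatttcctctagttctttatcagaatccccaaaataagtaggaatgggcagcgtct
Stab2 (chr10:87007893-87008192, minus strand): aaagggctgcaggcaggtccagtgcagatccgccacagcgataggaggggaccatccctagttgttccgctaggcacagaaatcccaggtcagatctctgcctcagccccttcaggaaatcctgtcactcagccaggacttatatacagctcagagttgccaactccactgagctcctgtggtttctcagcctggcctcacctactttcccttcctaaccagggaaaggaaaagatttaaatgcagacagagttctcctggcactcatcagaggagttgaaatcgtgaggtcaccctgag
Emcn and Stab2 held none of these 3 exact strings in this window, which says only that these letters are absent from it. Shorter or variant forms of the sites were not searched.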

How the data were processed

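RNA of 10 medial knee cartilage caps, 1 per mouse, was sequenced. The authors deposited TPM values per transcript. Per the submitters' processing notes, kallisto was used and the build is named as GRCh38, a human build, although all transcript identifiers are mouse; the index is not given in the sources used here. TPM keeps no read depth, so no count model, interval or floor was used, and the number of mice sets the precision.

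Transcript versions were dropped and 115440 of 116912 transcripts were matched to GENCODE M21 (GRCm38); the 1472 unmatched held 0.275% to 0.356% of TPM. TPM was summed per gene. Genes averaging 1 TPM or more were tested on log2(TPM + 1) with limma 3.58.1 (R 4.3.3; trend, all 10 libraries, no covariate, two-sided), with Benjamini-Hochberg adjustment over 13841 genes and a threshold of 0.05; this scale understates differences of low genes. A two-sided exact permutation test over 252 splits of the mice was run per gene. The procedure was tested on simulated data. No 2 libraries were identical (Spearman 0.933 to 0.973 over genes). The deleted microRNA itself was not analysed here, which leaves the genotype labels unchecked.

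The members, gene lists and rules were chosen with earlier results of these data known. All 10 members are described; wider genes are named where the unadjusted limma p was below 0.05, plus the most abundant of each list; the 5 most similar genes were taken by root mean square difference. Marker lists were mural cell, megakaryocyte, osteoblast and osteocyte, erythroid, chondrocyte, adipocyte, neutrophil, macrophage, marrow stromal and skeletal muscle. Of the lists not described above, chondrocyte genes were lower for 6 of 7 tested (4 at an unadjusted limma p below 0.05) and adipocyte for 5 of 5 (4). Neutrophil genes were lower for 7 of 7 (0), marrow stromal for 3 of 3 (0) and macrophage for 2 of 7 (0). Both skeletal muscle genes tested were higher (0), and Myh2 was listed at 0 in every library. Of all genes tested, 60.0% were lower, and 7.30% were lower and 4.28% higher at that threshold.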

Additional observations from a re-analysis of the deposited data

Results flagged for a closer look

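Kdr in wild-type 2 was 8.17 TPM and stood apart from the other 4 wild-type mice, which lay between 6.55 and 6.88 TPM. The gap exceeded Dixon's 95% limit for 5 samples. Of 48 groups checked this way, it was the 1 that stood out. By chance alone about 1 in 20 groups would do so, and 1 among 48 is no more than that. Without that mouse the Kdr log2 difference between genotypes was -0.080, against -0.13 with it.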

How the results depend on the processing

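Emcn (-0.59 to -0.42) and Plvap (-0.42 to -0.26) kept their direction and an unadjusted limma p below 0.05 under all 19 alternatives, and Cdh5 (-0.49 to -0.30) under 15 of 19. No member passed adjustment under any of them. The number of genes called over the whole table was 0 to 1 when each mouse was left out in turn, with 1 without wild-type replicate 3, wild-type replicate 4 or Mir324-null replicate 1. Of the wider endothelial genes, 8 were lower at an unadjusted limma p below 0.05. This was 4 with a mean of at least 5 TPM, and 4 to 14 with each mouse left out. The all-gene count of 1011 lower became 725 of 10333 with a mean of at least 5 TPM. It ran from 620 to 1355 with each mouse left out. The 2 wider endothelial genes that were higher became 4 under median ratio scaling, 4 under quantile normalization and 4 rescaled without haemoglobin. They became 1 to 3 with each mouse left out. The all-gene count of 592 higher became 875, 884 and 1216 under these scalings, and 441 to 680 with each mouse left out. Signs changed for Flt4 (0.013, quantile normalization), Stab2 (-0.079, protein-coding transcripts), Egfl7 (-0.24 to 0.063 with each mouse left out; 0.0059 without null 1) and Bmx (-0.050 without wild-type 1 to 0.20 without wild-type 5; -0.029 without wild-type 4); the cause was not tested.

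Among all genes at an unadjusted p below 0.05, the share that was lower was 63.1%, against 50.4% under median ratio scaling, 51.2% under quantile normalization, 32.2% rescaled without haemoglobin, 54.1% without wild-type 1 and 54.4% without null 5. The labels do not say whether replicate numbers pair the mice. Same-numbered deviations correlated at -0.11, -0.0066, -0.14, 0.056 and 0.021, and none matched its own number best. So few pairs cannot settle whether the mice were paired. With a replicate block, 3 members were lower at an unadjusted p below 0.05, 0 genes passed adjustment, and 1168 genes rather than 1603 had an unadjusted p below 0.05. Depth is unknown, so the precision of low genes such as Bcl6b and Nos3 cannot be stated beyond the spread between mice.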
